A study of Mus musculus with 2 samples.

Results

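Monocytes were 154 of the 4441 cells recovered from 6 mouse heart grafts on postoperative day 14, and they were taken as the cells that the study's own annotation calls Monocytes. Male Bm12 donor hearts, which carry the bm12 mutation of the MHC class II gene *H2-Ab1*, had been placed into male C57BL/6 (B6) recipients with unaltered IL-33, so that donor and recipient differed at I-A in both groups. The IL-33+ group held 3 BM12 WT hearts, numbered WT1, WT2 and WT3, and the IL-33- group held 3 BM12 IL33 KO hearts, numbered KO4, KO5 and KO6. Only the graft lacked IL-33, the donor strain having been made by crossing Bm12 onto an Il33-/- background. Immune cells were enriched from each digested heart on a Lympholyte-M gradient, tagged with 1 hashtag antibody per heart, pooled and run as 1 droplet library with 3′ counting. Monocytes of the donor and of the recipient cannot be told apart in these files.

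Monocytes are circulating myeloid cells that enter injured or rejecting tissue and there become macrophages or dendritic cells. Classical mouse monocytes carry Ly6C at high level and the chemokine receptor CCR2, whereas patrolling monocytes carry little Ly6C, depend on the nuclear receptor NR4A1 and remain mostly along the vessel wall. Interferon gamma from T and NK cells acts on monocytes through JAK kinases, and among its induced products is CXCL9, a chemokine that draws T cells bearing CXCR3. IL-33 is an alarmin of stromal cells, and its receptor ST2 is encoded by *Il1rl1*.

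The hearts contributed very unequal numbers of monocytes. WT1 gave 82, WT2 gave 5 and WT3 gave 15, whereas KO4 gave 33, KO5 gave 7 and KO6 gave 12. Their summed unique molecular identifiers (UMIs, 1 per counted RNA molecule) ran from 28910 in WT2 to 596873 in WT1, with a median of 6709.5 UMIs and 2424.5 genes per cell over all 154. Levels are given as counts per 1000000 UMIs of the cell (CPM), averaged over the monocytes of a heart, and the heart was the replicate (n = 3 per group) throughout. At these depths 3 UMIs correspond to 5.03 CPM in WT1, 13.4 CPM in KO4, 33.4 CPM in WT3, 37.0 CPM in KO6, 66.0 CPM in KO5 and 104 CPM in WT2, and a listed 0 was read as a level below that limit of the heart. These limits and all binomial intervals cover counting error only. All 6 hearts were in 1 library, no cell barcode occurred more than once among the 4441 cells, and no doublet caller was run here.

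*Il33* itself was almost absent from these cells, with 1 UMI in 1 WT1 monocyte and none in the other 5 hearts. The gene was therefore looked up in fibroblasts, the stromal cells of the same library. Fibroblasts held 7 UMIs of *Il33* in WT1 (34 cells), 0 in WT2 (6 cells) and 121 in WT3 (270 cells), and 9, 3 and 5 UMIs in KO4, KO5 and KO6 (31, 4 and 30 cells). Their mean levels were 24.3, 0 and 50.7 CPM in the IL-33+ hearts and 32.6, 73.8 and 16.1 CPM in the IL-33- hearts. Fibroblasts of the hearts labelled KO thus also carried *Il33* UMIs. The part of the gene removed in the knockout allele is not given in the sources used here, so 3′ tags do not check those labels.

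The annotation was checked against the 5 markers *Ly6c2*, *Plac8*, *Vcan*, *Hp* and *F13a1*. *Ly6c2*, which encodes the Ly6C antigen, averaged 785 ± 205 CPM (SD, n = 6 hearts) in monocytes, above central memory T cells (Tcm) at 465 CPM and macrophages at 359 CPM. *Plac8*, a cysteine-rich protein of myeloid cells, averaged 3251 ± 590.5 CPM and was followed by macrophages at 1195 CPM. *Hp*, the plasma protein haptoglobin that binds free hemoglobin, averaged 244 ± 123 CPM, with the cells annotated Mo-DCs next at 90.4 CPM. *F13a1*, the catalytic subunit of coagulation factor XIII, averaged 363 ± 126 CPM against 137 CPM in macrophages. *Vcan*, the matrix proteoglycan versican, was the exception, since its 289 ± 209.6 CPM in monocytes came second to 335 CPM in fibroblasts, with macrophages next at 40.4 CPM. Monocytes were first of the 14 annotated types for 4 of the 5 markers. At least 2 of the 5 markers were found in 143 of the 154 monocytes (92.9%), against 44.8% of macrophages, 15.7% of Mo-DCs and 29.2% of conventional dendritic cells (cDCs), and no monocyte lacked all 5. These levels are a description, since the types were made from the same expression values.

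**Figure D1:**
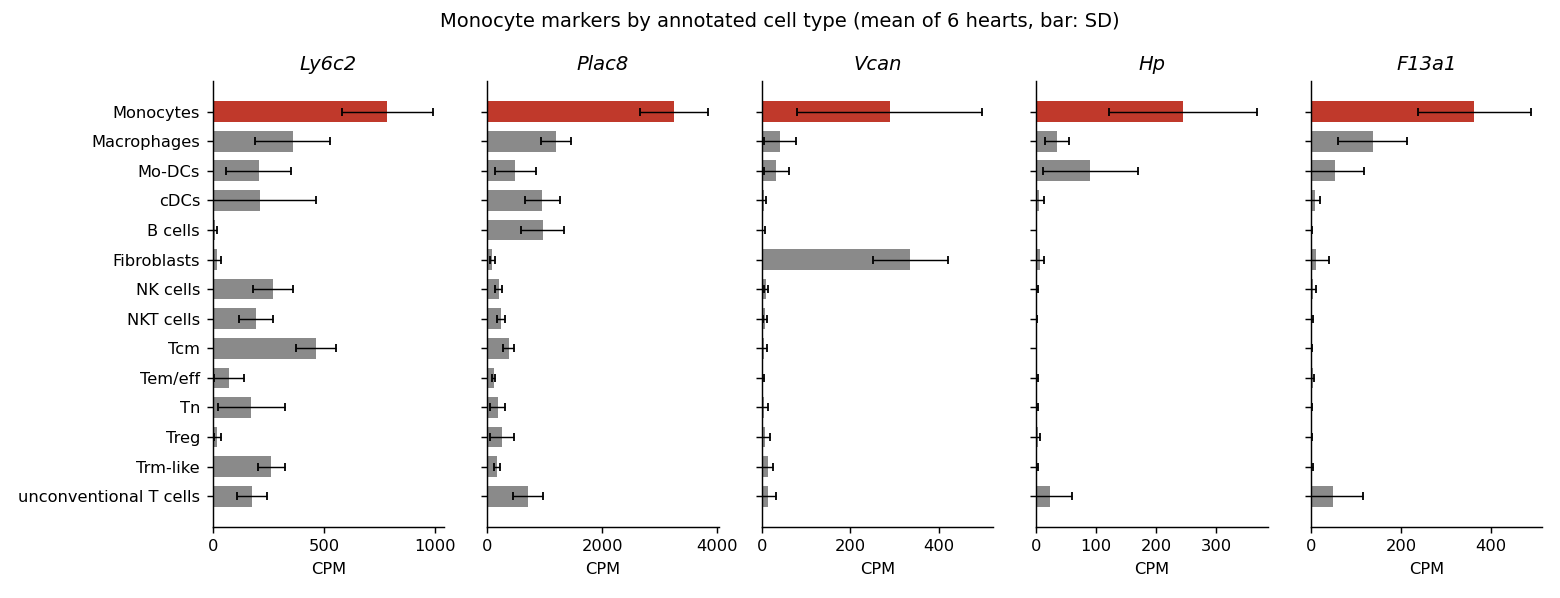
Mean CPM of each monocyte marker (x axis) in the 14 annotated cell types (y axis), averaged over the 6 hearts with the SD as a bar. Monocytes (red) have the highest mean for Ly6c2, Plac8, Hp and F13a1, and for Vcan fibroblasts reach 335 CPM against 289 CPM in monocytes.

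Markers of other cells were sparse with a few exceptions. At least 2 of 8 T cell markers were found in 0.649% of monocytes, at least 2 of 6 NK cell markers in 3.25% and at least 2 of 6 B cell markers in 4.55%, with *Cd3d*, *Cd4*, *Ncr1* and *Ms4a1* at 0 UMIs in all 154 cells. The dendritic list was met in 2.60%, with *Siglech* at 0, and no monocyte held 2 of the 5 heart muscle markers, of which *Myh6* and *Tnnt2* were at 0. At least 2 of 6 fibroblast markers were found in 29.9% of monocytes, a share within the 26.9% to 36.1% of the other 3 myeloid types. For neutrophils, 2 or more of 8 markers were met in 18.8% of monocytes, although *S100a9*, an alarmin subunit that makes up much of the neutrophil cytosol, averaged 8.50 ± 14.6 CPM in monocytes and 6498 ± 10540 CPM in Mo-DCs. Its partner *S100a8* averaged 236 ± 416 CPM in monocytes, with 12 positive cells and 1033 CPM in WT3, and the G-CSF receptor gene *Csf3r* 89.1 ± 55.1 CPM. The macrophage list did not separate the 2 types by this count (91.6% of monocytes and 90.7% of macrophages), but its summed level was 2096 CPM in monocytes as opposed to 7306 CPM in macrophages.

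The 154 cells were not uniform in the balance of classical and patrolling genes. *Ly6c2* had no UMI in 29 of them. Among these 29 cells *Ace*, the angiotensin-converting enzyme that marks patrolling monocytes, was detected in 58.6%, compared with 24.0% of the 125 cells with *Ly6c2*. *Adgre4*, an adhesion G protein-coupled receptor of the same subset, was detected in 62.1% against 23.2%, *Nr4a1* in 55.2% against 32.0%, *Ear2*, an eosinophil-associated ribonuclease, in 34.5% against 11.2%, and the muscle-type enolase *Eno3* in 24.1% against 3.20%. The opposite held for *F13a1*, at 17.2% against 65.6%, and less strongly for *Vcan* (37.9% against 61.6%) and *Hp* (48.3% against 68.8%). *Plac8* hardly differed (96.6% against 100%). *Chil3*, also counted as a classical gene, went the other way (48.3% against 40.0%). *Csf1r*, the receptor for the monocyte growth factor CSF1, was found equally often in both, at 89.7% and 89.6%, and *Ccr2* in 75.9% and 86.4%. Median depth was 5905 UMIs in the cells without *Ly6c2* and 6904 UMIs in those with it. *Treml4*, *Spn* and *Pou2f2*, also counted as patrolling genes, differed less (24.1% against 16.8%, 31.0% against 26.4% and 62.1% against 63.2%).

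Most of the cells without *Ly6c2* came from 1 heart. WT1 supplied 22 of the 29, which is 26.8% of its monocytes (exact Clopper-Pearson 95% interval 17.6% to 37.8%). WT3 supplied 4 of its 15 (26.7%, 7.79% to 55.1%), KO4 supplied 2 of 33 (6.06%, 0.743% to 20.2%), KO5 1 of 7 (14.3%), and WT2 and KO6 0 of 5 and 0 of 12, which allows shares of up to 60% and 25%. Within WT1 alone, *Ace* was detected in 72.7% of cells without *Ly6c2* and in 33.3% of cells with it, and *Adgre4* in 63.6% against 35.0%. Among the other 5 hearts only 7 cells lacked *Ly6c2*, of which 1 held *Ace* (14.3%, against 15.4% of 65 cells with *Ly6c2*) and 4 held *Adgre4* (57.1% against 12.3%). The *Ace* difference was therefore seen in WT1 only, and the *Adgre4* difference on both sides. Of the 11 monocytes with at most 1 of the 5 markers, which had a median of 5 of 11 patrolling genes, 7 were from WT1. WT1 also gave 26 of the 45 cells with all 5 markers and 82 of all 154 monocytes. The 45 cells had a median of 3 patrolling genes, as did the cells with 2, 3 or 4 markers.

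**Figure D2:**
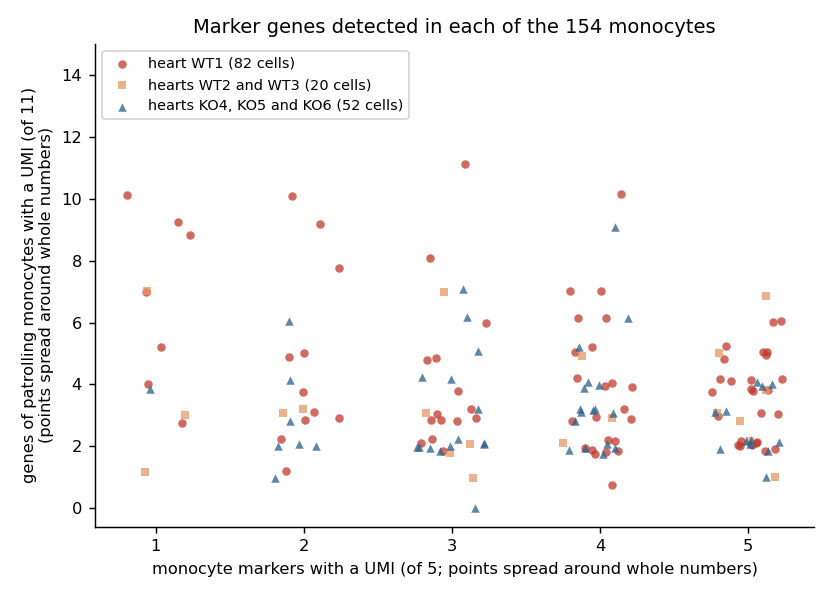
Each point is 1 of the 154 monocytes, placed by how many of the 5 monocyte markers (x axis) and of 11 genes of patrolling monocytes (y axis) have a UMI in it, with small random offsets. The 11 cells with 1 marker reach up to 10 patrolling genes, and 7 of them are from WT1 (red), which gave 82 of all 154 monocytes. Cells with 2, 3 and 4 markers reach 10, 11 and 10 patrolling genes, and cells with all 5 markers hold at most 7.

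Compared with macrophages, monocytes held more of a few secreted and antioxidant transcripts and less of chemokine and complement transcripts. Fold values in this description are on the log2(CPM + 10) scale over the 6 hearts. *Ifitm6*, an interferon-induced membrane protein of blood myeloid cells, was 6.35-fold higher than in macrophages (287 ± 61.3 CPM against 36.9 ± 26.9 CPM) and higher in 6 of 6 hearts. *Chil3*, a chitinase-like secreted protein, was 5.00-fold higher, in 5 of the 6 hearts. The oxidative stress enzymes *Gsr* (glutathione reductase) and *Mgst1* (a glutathione transferase) were 4.07-fold and 3.49-fold higher.

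In the other direction, *C1qa*, a chain of the complement initiator C1q, averaged 42.0 ± 41.8 CPM against 1260.5 ± 162 CPM in macrophages, a 24.5-fold difference. The CC chemokine genes *Ccl7*, *Ccl8*, *Ccl12* and *Ccl24* (5 to 58 UMIs in all monocytes) were each 13.2-fold to 19.2-fold lower in monocytes. *Retnla* and *Arg1*, secreted and metabolic products of alternatively activated macrophages, were 24.4-fold and 17.3-fold lower, and *Arg1* had only 12 UMIs in all monocytes. *Folr2*, *Lyve1* and *Cd163*, scavenging and folate receptors of resident macrophages, had no UMI. Summed over the 18 chemokine ligand genes, the level was 2692 CPM in monocytes as opposed to 7858 CPM in macrophages, and over the 11 complement genes 1479 and 3996 CPM.

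MHC class II genes, whose products present peptide to CD4+ T cells, were present at a lower level than in the professional antigen-presenting types. The 9 listed genes summed to 10905 CPM in monocytes, 12573 CPM in Mo-DCs, 31161 CPM in cDCs and 31833 CPM in macrophages. *Ms4a4c*, a tetraspanning membrane protein of Ly6C-high monocytes, was 8.45-fold above Mo-DCs and the calcium-binding *S100a4* 6.23-fold above them. The neutrophil list summed to 18197 CPM in Mo-DCs and to 416 CPM in monocytes, so that neutrophil transcripts separated the 2 types most by mean level. *S100a9* and *S100a8* were higher in Mo-DCs in 6 of 6 hearts but very uneven there, at 6498 ± 10540 and 9007 ± 13468 CPM (SD, n = 6). Against cDCs, the pattern receptor *Clec4e* (Mincle) was 40.8-fold higher, lysozyme *Lyz2* 37.4-fold and thrombospondin *Thbs1* 21.7-fold higher. The lymph node homing receptor *Ccr7*, with 6 UMIs in all monocytes, was 73.5-fold lower than in cDCs.

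The receptors with which monocytes answer the graft were well represented. *Csf2rb*, the shared beta chain of the GM-CSF receptor, averaged 734 ± 231 CPM (SD, n = 6), *Ccr2* 526 ± 49.0 CPM, *Ccr1* 447 ± 82.8 CPM and *Cxcr4*, the CXCL12 receptor, 1017 ± 181 CPM. *Ccr2* was at 295 ± 71.6 CPM in macrophages. *Ifngr1*, the ligand-binding chain of the interferon gamma receptor, averaged 341 ± 48.5 CPM. *Il1rl1*, by contrast, had 2 UMIs in 2 of the 154 cells, so an ST2 transcript was not detectable in most monocytes at this depth. Integrins were abundant, with the complement receptor chain *Itgam* at 452 ± 103 CPM and *Itgal*, the alpha chain of LFA-1, at 751 ± 345 CPM. The highest transcripts apart from mitochondrial and ribosomal ones included ferritin heavy chain *Fth1* at 16683 ± 3030.4 CPM, heme oxygenase *Hmox1* at 4770.4 ± 1553 CPM and the myeloid transcription factor *Cebpb* at 4873 ± 718 CPM.

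The central comparison asked which monocyte transcripts depended on graft IL-33. Of 7123 genes with enough UMIs, 1 passed a Benjamini-Hochberg adjusted p of 0.05 (limma), which is 0.014% of those tested. That gene was *Cxcl9*, lower in the IL-33+ hearts. No gene was called higher in the IL-33+ hearts, and limma-voom on the recovered UMIs called *Gm42418* in place of *Cxcl9*. *Gm42418*, also lower in the IL-33+ hearts, was likewise the only gene called among cells with 2 of 5 markers and among cells with *Ly6c2*. It was called with other genes when hearts were weighted by their monocytes, where *Cxcl9* was not. With a pseudocount of 50 CPM and without WT3 both genes were called. Other settings did call genes higher: with hearts weighted by their monocytes 8 of 30 called genes were higher, among them *Ace* (1.83), *Adgre4* (2.08), Lair1 (1.88), *Il4ra* (1.04) and *Itgal* (0.72), and without WT3 2 of 19, *Vcan* (1.64) and Clec4a1 (1.76). At an unadjusted p of 0.05 there were 347 genes (4.87%), and 262 (3.68%) also differed by at least 2-fold, of which 129 were higher (1.81%) and 133 lower (1.87%) in IL-33+ hearts. The 3 hearts of one group lay entirely above or below the 3 of the other for 684 genes (9.6%), 350 higher (4.91%) and 334 lower (4.69%). The fold change was below 0 for 50.9% of genes and its median was -0.01 on the log2 scale, so neither direction prevailed over all genes. All fold changes compare IL-33+ with IL-33- hearts, as differences of log2(mean CPM + 10). The added 10 CPM shrinks changes of low genes that are measured in every heart. Where a shallow heart reads 0, that 0 counts as 10 CPM, although the limit of WT2 is 104 CPM. A change can then also be overstated. The p-values rest on the spread between these 6 hearts after limma moderated it toward a trend over all genes. They therefore do not measure the spread of 1 gene alone.

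*Cxcl9* (chr5:92321347-92328079, minus strand, mm10) stood at 178, 0 and 0 CPM in WT1, WT2 and WT3 and 240.2, 272 and 215 CPM in KO4, KO5 and KO6. By mean level the 3 IL-33- hearts lay close together and above all 3 IL-33+ hearts, of which WT1 came nearest. The level of KO6 was 17 UMIs in 1 cell and that of KO5 17 UMIs in 2 cells, against 58 UMIs in KO4 and 102 in WT1. By unthinned share of positive cells, WT1 at 12.2% was above KO6 at 8.33%. The transcript was carried by 22 of the 154 cells, namely 10 of 82 in WT1, 0 of 5 in WT2 (which allows a share of cells with a UMI of up to 60%), 0 of 15 in WT3 (up to 20%), 9 of 33 in KO4, 2 of 7 in KO5 and 1 of 12 in KO6. The log2 fold change was -3.24 (SE 0.65, adjusted p = 0.047, limma). The group means were 59.3 and 243 CPM, a smaller ratio than the fitted 9.46-fold, for which the 0 of WT2 and WT3 counted as 10 CPM. Because WT2 gave 5 cells, its 0 only bounds the level below 104 CPM, whereas 33.4 CPM bounds that of WT3. The call held under 5 of 18 other settings, with the log2 fold change between -5.43 and -1.23 and the adjusted p between 0.00034 and 0.999. It was lost without WT2 (adjusted p = 0.999), KO4 (0.703), KO5 (0.509) or KO6 (0.155), and also when hearts were weighted by their monocytes (0.174). Without the trend over genes in the variance the call was lost as well (adjusted p = 0.953, limma).

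Sharing out the depth equally gave the same order of groups. After each cell was thinned to 3925 UMIs, *Cxcl9* was detected in 2.44% ± 4.22 of the monocytes of IL-33+ hearts and in 20.4% ± 10.7 of those of IL-33- hearts (SD, n = 3 each). The two-sided exact permutation p was 0.1, the smallest that 3 against 3 hearts can give. Without thinning the shares were 4.07% and 21.4% (exact permutation p = 0.2). Of 147 Tcm cells, which should not make CXCL9, 3.40% held a UMI of it after thinning. Tcm cells had a median of 4039 UMIs before thinning, and 119 shallower ones were left out. The mean of the IL-33+ hearts lay below this background, but it averaged 7.32% in WT1 (6 of 82 cells) with 0% in WT2 and WT3. The IL-33- hearts KO4, KO5 and KO6 stood at 24.2%, 28.6% and 8.33%. The exact Clopper-Pearson intervals of WT1 (2.73% to 15.2%) and KO6 (0.211% to 38.5%) both included the background.

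*Gbp2* (a guanylate-binding protein) and *Ifi47* (an immunity-related GTPase) are, like *Cxcl9*, textbook targets of interferon gamma, and *Isg15* is a ubiquitin-like target of type I interferon. The 250 bases upstream of their RefSeq starts (GRCm38.p6) are printed 5′ to 3′ to show what the interferon genes named next share or lack in sequence. Capitals mark matches on either strand to the core of the interferon-stimulated response element, which is the letters GAAA, any 2 bases and GAAA again, and matches may overlap.
Cxcl9: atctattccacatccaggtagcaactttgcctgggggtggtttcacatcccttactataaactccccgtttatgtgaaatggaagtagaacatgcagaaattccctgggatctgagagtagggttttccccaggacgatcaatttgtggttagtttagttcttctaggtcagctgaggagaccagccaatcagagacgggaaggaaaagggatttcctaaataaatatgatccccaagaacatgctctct
Gbp2: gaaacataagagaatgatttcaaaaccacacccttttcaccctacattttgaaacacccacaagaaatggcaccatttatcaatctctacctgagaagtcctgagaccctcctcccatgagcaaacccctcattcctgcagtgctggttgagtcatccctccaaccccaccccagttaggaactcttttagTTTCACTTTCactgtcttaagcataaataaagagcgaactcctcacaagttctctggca
Isg15: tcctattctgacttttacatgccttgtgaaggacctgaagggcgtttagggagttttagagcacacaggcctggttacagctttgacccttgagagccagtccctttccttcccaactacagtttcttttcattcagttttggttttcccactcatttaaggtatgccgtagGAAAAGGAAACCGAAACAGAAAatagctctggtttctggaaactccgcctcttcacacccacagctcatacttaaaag
These windows lie at chr5:92328080-92328329 (minus strand), chr3:142620413-142620662 (plus strand) and chr4:156200819-156201068 (minus strand). *Gbp2* has 1 match, starting 59 bases before its start, *Isg15* has 3 overlapping matches, and *Cxcl9* has none in this window, nor does *Ifi47* in its own. Of 38 genes on the lists of interferon targets, 29 had such a window, and 15 of them (51.7%) held a match, compared with 936 of 27025 genes overall (3.46%). The gamma-activated site, TTCNNNGAA, was found in 8 of the 29 (27.6%) and in 8.13% of all genes. A match is a description of letters and not a binding site.

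Among the 21 tested genes of the interferon gamma list, 1 was called and 16 had fold changes below 0, with a median of -0.44 against -0.01 for all tested genes. At an unadjusted p of 0.05, 4 were lower and 0 higher in the IL-33+ hearts, where 2.57% of all genes were lower. The median stayed below 0 under all 18 alternatives (-0.69 to -0.23), which reuse the same hearts, and its spread between hearts was 0.39 (SD). The medians of the chemokine receptor, adhesion, MHC class II and matrix and coagulation lists, among others, also stayed below 0 under all 18. *Gbp2* was at 402, 40.3 and 240.0 CPM in WT1, WT2 and WT3 and 457, 761 and 456 CPM in KO4, KO5 and KO6, all 3 IL-33+ hearts below all 3 others, with a log2 fold change of -1.67 (SE 0.39, adjusted p = 0.21) that was -0.78 without WT2 and -1.94 without WT3, where it was called (adjusted p = 7.28e-05). *Tap1*, the peptide transporter for MHC class I, was at 224, 136 and 119 CPM in the IL-33+ hearts and 206, 351 and 282 CPM in the IL-33- hearts (-0.79, SE 0.35), where WT1 lay within the IL-33- range. *Cxcl10*, a further CXCR3 ligand, was at 108, 40.3 and 18.8 CPM in the IL-33+ hearts and 295, 77.9 and 57.4 CPM in the IL-33- hearts (-1.13, SE 0.58), with KO4 high and the remaining hearts overlapping, and -0.47 without KO4. None of these genes other than *Cxcl9* passed the adjusted threshold. *Ifngr1*, which encodes the receptor chain, did not follow them, at 384, 301.98 and 305.77 CPM in the IL-33+ hearts and 285, 395 and 375 CPM in the IL-33- hearts.

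The 14 tested genes of the list of interferon-stimulated genes gave a median of -0.79, with 11 below 0, 5 lower (2.57% of all genes) and 0 higher at an unadjusted p of 0.05, and none called. This median stayed between -1.24 and -0.41 under all 18 alternatives, beside a spread between hearts of 0.61 (SD). *Ifi47* was at 258, 0 and 77.6 CPM in WT1, WT2 and WT3 and 285, 331 and 262 CPM in KO4, KO5 and KO6 (-2.29, SE 0.56, adjusted p = 0.213), the IL-33- hearts again close together. *Ifi27l2a*, a small interferon-inducible membrane protein, was at 565, 518 and 794 CPM in WT1, WT2 and WT3 and 1117, 1177 and 961 CPM in KO4, KO5 and KO6 (-0.80, SE 0.23, adjusted p = 0.377), and here no IL-33+ heart reached the lowest IL-33- heart. *Ifi27l2a* rested on 132 of the 154 cells, the widest detection of the 4 genes on both lists whose groups did not overlap (*Gbp2* 96 cells, *Ifi47* 76, *Cxcl9* 22). These were 2 of 21 and 2 of 14 members, where 4.69% of all tested genes were lower without overlap. *Isg15* was at 33.2, 0 and 125 CPM in the IL-33+ hearts and 263, 41.1 and 112 CPM in the IL-33- hearts (-1.62, SE 0.67), *Bst2* (tetherin, which holds virions at the cell surface) at 152, 27.0 and 305.69 CPM in the IL-33+ hearts and 386, 254 and 178 CPM in the IL-33- hearts (-1.13) and *Oasl2*, of the oligoadenylate synthetase family, at 32.5, 0 and 46.0 CPM in the IL-33+ hearts and 199, 26.0 and 86.3 CPM in the IL-33- hearts (-1.64). In each of these last 3 genes the groups overlapped. Without WT2 the log2 fold changes were -0.97 for *Ifi47*, -0.65 for *Isg15*, -0.25 for *Bst2* and -0.88 for *Oasl2*, whereas without WT3 *Ifi47* (-2.54) and *Bst2* (-1.80) were called. *Ifitm3*, which blocks virus entry and was the highest member at 1640.2 ± 198 CPM, was at 1401, 1935 and 1732 CPM in the IL-33+ hearts and 1703, 1441 and 1629.6 CPM in the IL-33- hearts, the groups intermingled. The 2 lists share the direction for most members but not for all, and *Stat2* and *Ciita* had fold changes above 0.

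**Figure D3:**
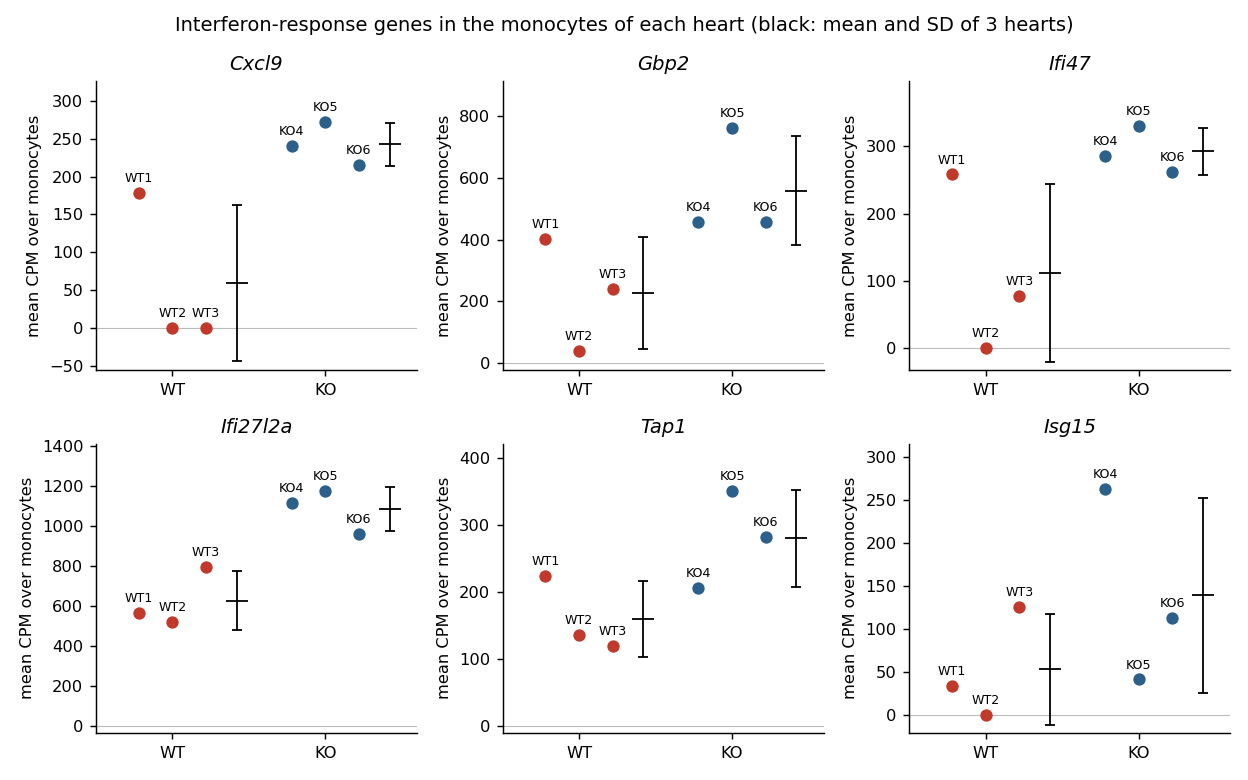
Mean CPM over the monocytes of each heart (y axis, linear) for 6 interferon-response genes in the WT (IL-33+) and KO (IL-33-) hearts, with the mean and SD of 3 hearts in black (the lower SD bar can fall below 0). The groups are apart for Cxcl9, Gbp2, Ifi47 and Ifi27l2a, and overlap for Tap1 and Isg15.

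Outside the interferon lists, chemokine ligands divided by member. Of 14 tested, 1 was called (*Cxcl9*), 10 had fold changes below 0 and the median was -0.17, but 0.06 with only the 4 hearts of at least 10 monocytes. *Cxcl16*, a membrane-bound chemokine for CXCR6, was at 147, 80.6 and 105 CPM in WT1, WT2 and WT3 and 413, 322 and 182 CPM in KO4, KO5 and KO6 (-1.35, SE 0.38, adjusted p = 0.377), the groups not overlapping. *Ccl2*, the ligand of CCR2, was at 68.3, 0 and 68.3 CPM in WT1, WT2 and WT3 and 272, 369.8 and 45.6 CPM in KO4, KO5 and KO6 (-2.20, SE 0.63), with KO6 down among the IL-33+ hearts, and -1.21 without WT2 but -2.70 and called without WT3. *Ccl5*, a T cell and monocyte attractant, was at 28.2, 0 and 35.2 CPM in the IL-33+ hearts and 238, 0 and 176 CPM in the IL-33- hearts (-1.58), and *Ccl3* at 16.4, 0 and 269 CPM in the IL-33+ hearts and 4.99, 0 and 0 CPM in the IL-33- hearts (1.87), in each case with 1 or 2 hearts setting the group mean (*Ccl5* -0.74 without KO4 and -3.06 without KO5). *Ccl6* and *Ccl9*, which are constitutive chemokines of mouse myeloid cells, had the groups intermingled, at 346, 771 and 758 CPM in the IL-33+ hearts and 393, 879.6 and 610.2 CPM in the IL-33- hearts for the first and 277, 427 and 520.4 CPM in the IL-33+ hearts and 342, 356 and 244 CPM in the IL-33- hearts for the second. The neutrophil attractant *Cxcl2* ranged widely within both groups, at 580.2, 482 and 736 CPM in the IL-33+ hearts and 1257, 1485 and 207 CPM in the IL-33- hearts.

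Chemokine receptor genes differed little between the groups. All 8 tested had fold changes below 0, with a median of -0.26, and none reached an unadjusted p of 0.05. *Ccr2* was at 480.1, 531 and 459 CPM in WT1, WT2 and WT3 and 591, 538 and 557 CPM in KO4, KO5 and KO6, 3 hearts just below the other 3. *Ccr1*, a receptor for CCL3 and CCL5, was at 299, 472 and 435 CPM in the IL-33+ hearts and 433, 513 and 530.1 CPM in the IL-33- hearts. *Cxcr4* was at 686, 1115 and 1206 CPM in the IL-33+ hearts and 981, 1100.3 and 1012 CPM in the IL-33- hearts and *Cx3cr1*, the fractalkine receptor of patrolling monocytes, at 94.6, 193 and 114 CPM in the IL-33+ hearts and 67.7, 358 and 131 CPM in the IL-33- hearts, both overlapping.

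Among adhesion genes, *Itgal* was at 832, 1398 and 613 CPM in WT1, WT2 and WT3 and 424, 546 and 694 CPM in KO4, KO5 and KO6 (0.71, SE 0.25), with WT3 inside the IL-33- range, and 0.39 without WT2. *Cd44*, the hyaluronan receptor found in all 154 cells, was at 1973, 2005 and 2275 CPM in the IL-33+ hearts and 1776, 2239 and 2642 CPM in the IL-33- hearts, and the beta chain *Itgb2* at 455, 749.6 and 584 CPM in the IL-33+ hearts and 544, 631 and 423 CPM in the IL-33- hearts, both intermingled. Over the 11 adhesion genes, 7 were below 0, the median was -0.27, and 1 was higher and 1 lower at an unadjusted p of 0.05 (2.3% and 2.57% of all genes).

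Of 8 tested MHC class II genes, 7 had fold changes below 0, the median was -0.26, and 2 were lower at an unadjusted p of 0.05 (2.57% of all genes). That median lay within the spread between hearts (SD 0.34). It was -0.020 without the cells that carry at least 2 markers of 1 other lineage (T, NK, B, neutrophil, fibroblast or endothelial). *H2-Aa*, the I-A alpha chain, was at 908, 1764 and 1199.5 CPM in WT1, WT2 and WT3 and 1235, 2235 and 2330.4 CPM in KO4, KO5 and KO6 (-0.58, SE 0.22, adjusted p = 0.965), with WT2 within the IL-33- range. *H2-DMa*, which helps to load peptide, was at 179.6, 40.3 and 125 CPM in WT1, WT2 and WT3 and 164, 338 and 167 CPM in KO4, KO5 and KO6 (-1.02, SE 0.43, and -0.47 without WT2). *H2-Ab1*, the gene mutated in every donor, was at 999, 2527 and 1500.1 CPM in the IL-33+ hearts and 1498, 2221 and 1450.3 CPM in the IL-33- hearts, and the invariant chain *Cd74* at 3293, 4812 and 3997 CPM in the IL-33+ hearts and 3528, 5859.5 and 3536 CPM in the IL-33- hearts, neither of which kept the groups apart. *Cd86*, a costimulatory ligand for CD28, was at 178, 37.2 and 166 CPM in the IL-33+ hearts and 182, 192 and 69.1 CPM in the IL-33- hearts (-0.33, SE 0.47), and *Cd274*, which encodes PD-L1, was at 206, 77.5 and 183 CPM in the IL-33+ hearts and 197, 250.0 and 161 CPM in the IL-33- hearts. The direction of *Cd86* turned without WT2 (0.32), a heart with 5 monocytes.

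Of 10 tested complement genes, 7 had fold changes below 0, the median was -0.71 and remained between -0.99 and -0.50 under all 18 alternatives, and 4 were lower at an unadjusted p of 0.05 (2.57% of all genes) with none called. The spread of that median between hearts was 0.31 (SD). *Cfb*, factor B of the alternative pathway, was at 37.0, 27.0 and 9.93 CPM in WT1, WT2 and WT3 and 123, 63.4 and 138 CPM in KO4, KO5 and KO6. *Cfp*, the stabiliser properdin, was at 95.6, 55.4 and 129 CPM in WT1, WT2 and WT3 and 182, 218 and 158 CPM in KO4, KO5 and KO6, and *C3*, the central component, at 211, 208 and 274 CPM in WT1, WT2 and WT3 and 346, 304.99 and 436 CPM in KO4, KO5 and KO6. For *Cfb*, *Cfp* and *C3* all 3 IL-33+ hearts lay below all 3 IL-33- hearts, as they did for 4.69% of all genes, whereas *C1qb* was at 28.8, 0 and 12.4 CPM in the IL-33+ hearts and 78.2, 15.2 and 108 CPM in the IL-33- hearts and overlapped. The receptor *C5ar1* was at 158, 250.0 and 202 CPM in the IL-33+ hearts and 247, 289 and 286 CPM in the IL-33- hearts, with WT2 inside the IL-33- range.

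Inflammatory cytokine genes gave no common direction. *Il1b*, which encodes interleukin-1 beta, was at 471, 27.0 and 843 CPM in WT1, WT2 and WT3 and 503, 609 and 270.0 CPM in KO4, KO5 and KO6 (-0.85, SE 0.49), and without WT2 its log2 fold change was 0.52. *Il1rn*, the receptor antagonist that opposes it, was at 163, 188 and 234 CPM in WT1, WT2 and WT3 and 649.8, 322 and 242 CPM in KO4, KO5 and KO6 (-0.91, SE 0.33, adjusted p = 0.965). Its groups did not overlap, and its fold change was -0.51 without KO4. *Osm*, oncostatin M, was at 403, 249.6 and 459 CPM in the IL-33+ hearts and 282, 653 and 277 CPM in the IL-33- hearts. Of 10 tested genes of this list 6 were below 0, with a median of -0.27, and *Il12b* had no UMI.

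The markers of monocytes themselves were compared next, since a change in them would bear on which cells were annotated. *Ly6c2* was at 409, 925 and 713 CPM in WT1, WT2 and WT3 and 976, 858 and 830.1 CPM in KO4, KO5 and KO6 (-0.45, SE 0.24, adjusted p = 0.965), with WT1 lowest and the rest overlapping. *Plac8* was at 3185, 2792 and 2429 CPM in WT1, WT2 and WT3 and 3473, 4107 and 3518 CPM in KO4, KO5 and KO6 (-0.40, SE 0.17), lower in all 3 IL-33+ hearts. *Hp* was at 286, 334 and 399.8 CPM in WT1, WT2 and WT3 and 210.1, 51.3 and 185 CPM in KO4, KO5 and KO6 (1.33, SE 0.38, adjusted p = 0.377), higher in all 3 IL-33+ hearts. *Vcan* was at 348, 632 and 192 CPM in WT1, WT2 and WT3 and 381, 65.8 and 114 CPM in KO4, KO5 and KO6 (1.22, SE 0.40), with KO4 within the IL-33+ range. Without KO5 the log2 fold changes of *Hp* and *Vcan* were 0.75 and 0.71, and *Vcan* was called without WT3 (1.64). *F13a1* was at 309.7, 372 and 363 CPM in WT1, WT2 and WT3 and 248, 284 and 601 CPM in KO4, KO5 and KO6 (-0.01, SE 0.30), a difference whose sign turned under other settings. None of the 5 was called, and the wider list of 10 classical monocyte genes had a median of 0.11 with 5 of 10 below 0. After thinning to equal depth, *Hp* was detected in 68.2% ± 10.5 of the cells of IL-33+ hearts and 31.0% ± 15.7 of those of IL-33- hearts (two-sided exact permutation p = 0.1), and in 0 of 147 Tcm cells, which allows a share of up to 2.04%. Without thinning the shares of *Hp* were 72.9% and 45.4%.

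Of 11 tested genes of patrolling monocytes, 7 had fold changes above 0 with a median of 0.28, and 4 were higher and 0 lower at an unadjusted p of 0.05, where 2.3% of all genes were higher. *Eno3* is among these 4, but it had UMIs in IL-33+ hearts only and so met the filter through them alone. Its p-value is therefore not support for a higher list. *Ace* was at 208, 102 and 66.1 CPM in WT1, WT2 and WT3 and 45.5, 0 and 93.3 CPM in KO4, KO5 and KO6 (1.67, SE 0.64) and *Adgre4* at 134, 64.2 and 76.3 CPM in WT1, WT2 and WT3 and 20.4, 30.0 and 16.9 CPM in KO4, KO5 and KO6 (1.61, SE 0.64), and for *Adgre4* the groups did not overlap. *Eno3* was at 34.9, 112 and 9.44 CPM in WT1, WT2 and WT3 and had no UMI in KO4, KO5 or KO6. Against a limit of 3 UMIs per heart, which averages 38.8 CPM, its mean in IL-33+ hearts was at least 1.34-fold higher, but this bound rests on WT2, whose level was 3 UMIs in 1 cell. Without WT2 the mean of 22.2 CPM lay below the limit and no fold can be given. With *Eno3* set to the bound the median of the list was unchanged at 0.28. Thinned to equal depth, *Ace* was detected in 26.5% ± 17.6 of the cells of IL-33+ hearts and 8.59% ± 8.34 of those of IL-33- hearts (exact permutation p = 0.3) and *Adgre4* in 23.3% ± 11.97 against 9.56% ± 4.25 (exact permutation p = 0.2), beside 0.68% and 0% of 147 Tcm cells, where a count of 0 allows a share of up to 2.04%. The unthinned shares were 30.2% and 13.4% for *Ace* and 36.4% and 11.6% for *Adgre4*. The fold change of *Ace* turned to -0.21 once cells with markers of other lineages were left out, and the median of the list to -0.23, and *Ace* was at 0.70 without KO5. Without WT1 that median was -0.01.

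The cells without *Ly6c2* were, as given above, 26.8%, 0% and 26.7% of the monocytes of WT1, WT2 and WT3 and 6.06%, 14.3% and 0% of those of KO4, KO5 and KO6, so the groups overlapped. When these cells were left out, 125 monocytes remained, *Cxcl9* had a log2 fold change of -3.23 (adjusted p = 0.0723), and the only gene called was *Gm42418*, a ribosomal RNA-overlapping transcript. *Gm42418* was at 8117, 7767 and 10498 CPM in WT1, WT2 and WT3 and 12894, 12183 and 15928 CPM in KO4, KO5 and KO6 over all monocytes (-0.64, SE 0.14, adjusted p = 0.127). Red cell transcripts were unevenly spread too, with the 4 hemoglobin genes summing to 62.6 to 88.5 CPM in the IL-33+ hearts and to 43.5 to 4487 CPM in the IL-33- hearts, the highest being KO4, and the median of the 3 that could be tested was -1.99. *Hbb-bs*, the adult beta chain, was at 39.7, 78.6 and 21.4 CPM in WT1, WT2 and WT3 and 2259.8, 22.2 and 53.3 CPM in KO4, KO5 and KO6 (-1.69), and without KO4 its log2 fold change was 0.20. The part of these transcripts in the other results was not tested.

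Markers of other cells were also set side by side by group. The 6 NK cell markers, of which *Ncr1* was at 0, summed to 0 to 50.7 CPM in the monocytes of IL-33+ hearts and 42.1 to 324 CPM in those of IL-33- hearts, and the 3 that could be tested were all below 0. The 12 macrophage markers summed to 1114 to 3372 CPM and 1524 to 2493 CPM, with 8 of 11 tested below 0, so the ranges lay within each other. The 8 neutrophil markers summed to 165 to 1386 CPM and 0 to 635 CPM, and the 8 T cell markers to at most 23.2 and 20.2 CPM, with *Cd3d* and *Cd4* at 0. Monocytes with at least 2 markers of 1 type among T, NK, B, neutrophil, fibroblast and endothelial cells were then left out. Macrophage, dendritic, heart muscle and red cell markers did not count for this. In the remaining cells the medians of the interferon gamma, interferon-stimulated and complement lists were -0.32, -0.68 and -0.70, and *Cxcl9* had a log2 fold change of -3.46 (adjusted p = 0.538, limma).

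Growth factor receptor genes had a median of 0.15, with 8 of 12 above 0 and 2 higher at an unadjusted p of 0.05, where 2.3% of all genes were higher. *Csf1r* was at 444, 466 and 337 CPM in WT1, WT2 and WT3 and 429, 139.7 and 184 CPM in KO4, KO5 and KO6 (0.85, SE 0.33), with KO4 alone among the IL-33+ hearts, and 0.53 without KO5. *Csf2ra*, the GM-CSF receptor alpha chain, was at 311, 510.3 and 343 CPM in the IL-33+ hearts and 289.5, 210.1 and 237 CPM in the IL-33- hearts, the groups not overlapping. *Cd93*, a C1q-related receptor, was at 98.7, 340.3 and 219 CPM in WT1, WT2 and WT3 and 98.7, 79.0 and 61.3 CPM in KO4, KO5 and KO6 (1.22, SE 0.44). *Runx3*, a transcription factor of cytotoxic and myeloid cells, was at 599.6, 1355 and 615 CPM in the IL-33+ hearts and 565, 747 and 352 CPM in the IL-33- hearts (0.57, and 0.19 without WT2), and the 11 tested myeloid transcription factors had a median of -0.11. *Cebpb* was at 5099, 5331 and 3670.2 CPM in the IL-33+ hearts and 4607, 5759.5 and 4774 CPM in the IL-33- hearts and *Zeb2*, a repressor needed for monocyte identity, at 1002, 1164 and 1072 CPM in the IL-33+ hearts and 1605, 1371 and 1197 CPM in the IL-33- hearts. The groups overlapped for *Cebpb* and not for *Zeb2*.

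For the receptors through which type 2 signals reach a monocyte, 8 genes could be tested and their median was -0.09. *Il4ra*, the shared chain for interleukins 4 and 13, was at 341, 215 and 190.0 CPM in the IL-33+ hearts and 104, 243 and 251 CPM in the IL-33- hearts, and *Il13ra1* at 176, 0 and 79.3 CPM in the IL-33+ hearts and 76.4, 103 and 127 CPM in the IL-33- hearts, both overlapping. *Il1rl1* was not among those tested. The alternative activation list had a median of 0.09 over 8 genes, *Chil3* being at 202, 993 and 363 CPM in WT1, WT2 and WT3 and 169.8, 213 and 376 CPM in KO4, KO5 and KO6 (0.79, and 0.18 without WT2) and *Tgfbi*, a matrix protein induced by TGF-beta, at 2190.1, 1405 and 2218 CPM in the IL-33+ hearts and 2568, 1688 and 2227 CPM in the IL-33- hearts.

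Matrix and coagulation genes had a median of -0.17 over 15. Thrombospondin *Thbs1* was at 1349, 3620.1 and 1665 CPM in the IL-33+ hearts and 2236, 1223 and 2865 CPM in the IL-33- hearts and fibronectin *Fn1* at 994, 1206 and 997 CPM in the IL-33+ hearts and 1015, 822 and 896 CPM in the IL-33- hearts, both intermingled, whereas *Tgm2*, a transglutaminase that crosslinks matrix, was at 244, 53.9 and 351 CPM in WT1, WT2 and WT3 and 359, 534 and 413 CPM in KO4, KO5 and KO6 and did not overlap. The 15 glycolysis genes had a median of 0.14, and *Hif1a*, the oxygen-sensing regulator, was at 673, 610.5 and 848 CPM in the IL-33+ hearts and 1035, 1247 and 612 CPM in the IL-33- hearts (-0.39, and -0.18 without KO5). Pattern recognition genes, with *Cd14* at 890.4, 828 and 1065 CPM in the IL-33+ hearts and 732, 546 and 1159 CPM in the IL-33- hearts, had a median of -0.08 over 13, Fc and scavenger receptors one of -0.09 over 10, and lysosomal and antimicrobial genes one of -0.23 over 15. None of these lists held a called gene.

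**Figure D4:**
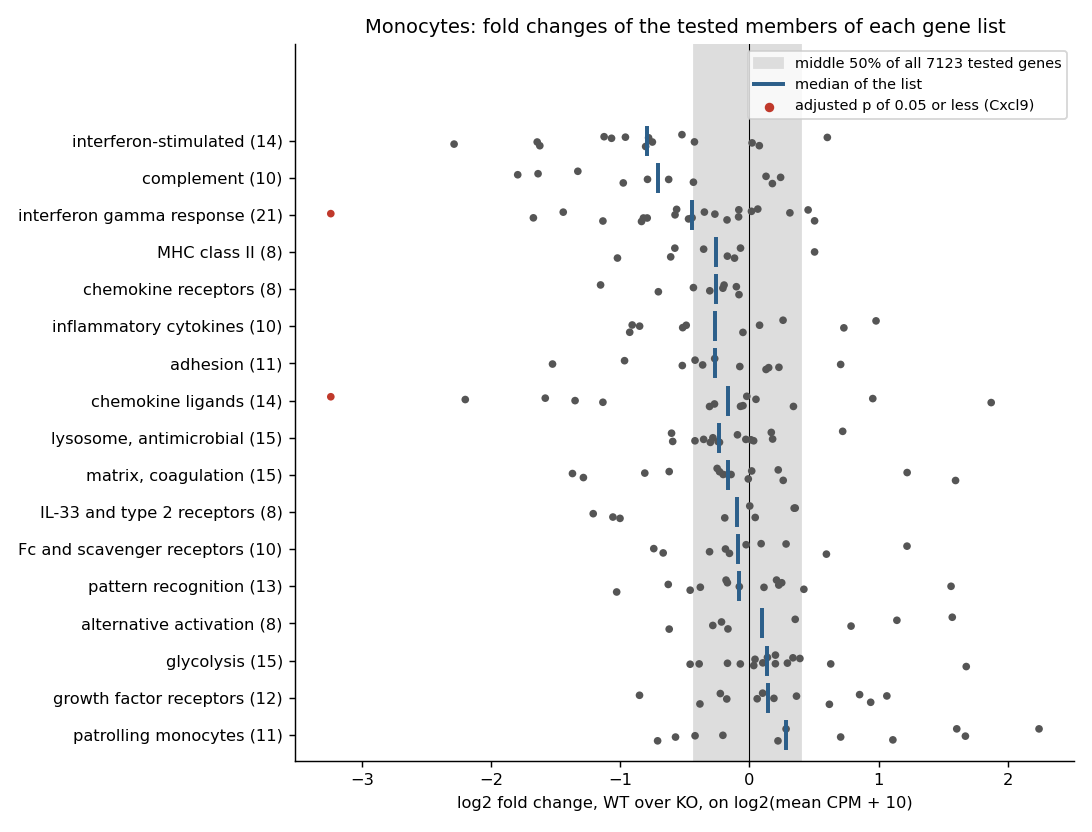
Each dot is a tested gene of a list (y axis, number tested in brackets) at its log2 fold change of IL-33+ over IL-33- hearts (x axis), with the list median as a blue bar and the middle 50% of all 7123 tested genes in grey. Among the lists drawn, the medians of the interferon-stimulated, complement and interferon gamma lists are the lowest, at -0.79, -0.71 and -0.44, and the only called gene is Cxcl9 (red, shown in both lists that hold it). The patrolling gene farthest to the right is Eno3, whose fitted value depends on the added 10 CPM.

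Genes were also ranked by the size of their fold change, among those of at least 100 CPM in either group whose groups did not overlap. That held for 252 of the 2174 genes at this level, beside 9.6% of all tested genes. The order of hearts is therefore not particular to the genes named here. Higher in all 3 IL-33+ hearts were *Tnfsf13* (the B cell factor APRIL) at 128, 142 and 78.1 CPM in the IL-33+ hearts and 48.3, 0 and 47.8 CPM in the IL-33- hearts, *Glipr1* at 166, 237 and 138 CPM in the IL-33+ hearts and 96.2, 40.2 and 26.8 CPM in the IL-33- hearts and *Dnajc8*, a cochaperone, at 125, 157 and 130.1 CPM in the IL-33+ hearts and 102, 0 and 72.3 CPM in the IL-33- hearts. Their log2 fold changes were 1.93, 1.68 and 1.70, with adjusted p of 0.92, 0.418 and 0.965 (limma). *Dnajb14* (1.64) and *Rnf187* (1.65) completed the highest 5. KO5 was at 0 for *Tnfsf13*, *Dnajc8*, *Dnajb14* and *Rnf187*, but at 40.2 CPM for *Glipr1*, and without KO5 the log2 fold changes of *Tnfsf13* and *Dnajc8* were 1.08 and 0.61.

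The 5 lowest in all 3 IL-33+ hearts were, in order of fold change, *Cxcl9*, *Rapgef2*, *Ifi205*, *Ifi47* and *Traf3*. *Rapgef2*, an activator of the small GTPase Rap1, was at 57.5, 0 and 11.2 CPM in the IL-33+ hearts and 91.2, 182 and 112 CPM in the IL-33- hearts (-2.46, SE 0.67). *Ifi205*, an interferon-inducible DNA-binding protein, was at 40.4, 0 and 9.93 CPM in the IL-33+ hearts and 204, 51.9 and 81.1 CPM in the IL-33- hearts (-2.30, SE 0.72), and *Traf3*, a signalling adaptor, at 50.3, 0 and 71.5 CPM in the IL-33+ hearts and 77.5, 186 and 214 CPM in the IL-33- hearts (-2.10, SE 0.61). Their adjusted p were 0.377, 0.639 and 0.419 (limma). WT2 was at 0 for all 5, and without WT2 the log2 fold changes of *Rapgef2*, *Ifi205* and *Traf3* were -1.82, -1.75 and -1.16.

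Macrophages, to which monocytes give rise, offered the same contrast in the same hearts. Over 9682 tested genes none was called in macrophages (0%), 391 (4.04%) reached an unadjusted p of 0.05 and the median log2 fold change was -0.05. In macrophages, *Cxcl9* was at 729.5, 702 and 664 CPM for WT1, WT2 and WT3 and at 629.7, 398 and 1097 CPM for KO4, KO5 and KO6, a log2 fold change of 0.10. The difference between the 2 types, tested per heart on 7104 genes, was -3.34 for *Cxcl9* (SE 0.81, adjusted p = 0.93, limma). No gene was called in that test (0%), and 299 reached an unadjusted p of 0.05 (4.21%), whereas limma-voom called 4 genes, the hemoglobin genes *Hba-a1*, *Hba-a2* and *Hbb-bs* and the lysozyme gene *Lyz2*. With hearts weighted by their monocytes the same 4 genes and *Gm42418* were called (*Lyz2* 1.21, adjusted p = 0.00024, limma). *Cxcl9* was called in that test without WT1 (-4.72, adjusted p = 0.0019), together with *Tgm2* (-2.65), and in no other setting run.

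Across the interferon gamma list the monocyte median was -0.44 and the macrophage median 0.13. The monocyte minus macrophage difference was below 0 for 18 of 21 genes with a median of -0.65, where 47.4% of all genes were below 0. For the interferon-stimulated list the medians were -0.79 and -0.23, and 9 of 14 differences were below 0. *Gbp2* had a log2 fold change of -0.13 in macrophages and *Ifi47* of -0.12, whereas *Cxcl10* stood at -1.06 there, close to its -1.13 in monocytes. Chemokine receptors were below 0 in monocytes for 8 of 8 genes and in macrophages for 2 of 9, where 54.7% of all genes tested in macrophages were below 0.

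**Figure D5:**
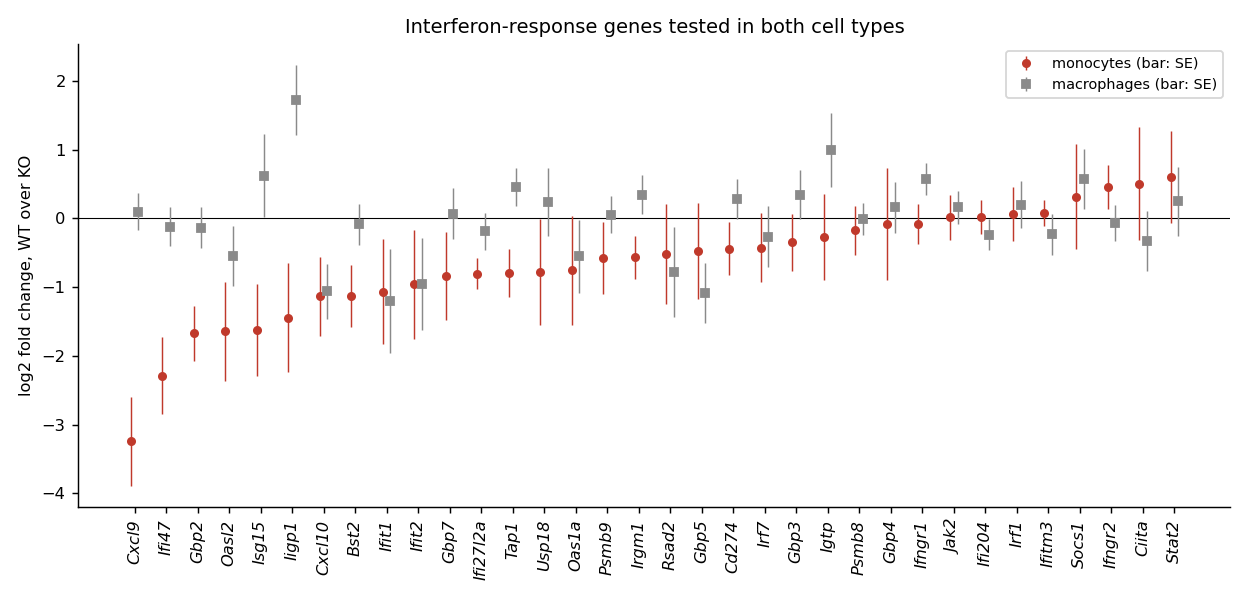
Log2 fold change of IL-33+ over IL-33- hearts (y axis, bars are SE) for interferon-response genes tested in monocytes (red) and in macrophages of the same hearts (grey), ordered by the monocyte value. Cxcl9 is at -3.24 in monocytes and 0.10 in macrophages, and Cxcl10 is near -1.1 in both.

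The share of monocytes among recovered cells did not separate the groups. It was 9.47% in WT1, 2.17% in WT2 and 0.9% in WT3, and 3.95%, 2.46% and 2.15% in KO4, KO5 and KO6, so that the IL-33+ hearts held both the highest and the lowest value. The means were 4.18% ± 4.62 and 2.85% ± 0.961 (two-sided exact permutation p = 0.9). Among the 4 myeloid types together the shares were 16.4% ± 9.49 and 15.8% ± 2.65 (exact permutation p = 0.9). These are shares of cells that passed a gradient and a hashtag call, not counts per gram of graft.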

How the data were processed

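Cells of the 6 grafts were hashed by heart and run as 1 pooled 10x 3′ library. Per the submitters' processing notes, Cell Ranger, the mouse build mm10 and Partek (10.0.23.0425) were used, and the authors filtered, clustered and annotated the cells. The matrix the authors deposited holds log2 values, log2(CPM + 1) per gene and cell, with each cell's heart and type in a second deposited table. The CPM were recovered from these log2 values, and 99.941% of low values were whole UMIs within 0.05. For 18 symbols with several identifiers the mean was used, Aldoa among the listed genes.

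Monocytes were averaged per heart as mean CPM. limma (3.58.1, lmFit and eBayes with trend, R 4.3.3) was run on log2(mean CPM + 10) over genes with at least 10 UMIs and a UMI in 3 hearts, with Benjamini-Hochberg adjustment, and a gene was called at an adjusted p of 0.05. Partek's GSA algorithm, used by the authors, was not run. The effect was compared between types by limma on each heart's monocyte minus macrophage log2 difference. Differences in shares were tested over hearts with exact permutation, two-sided. Nothing in the sources ties hearts to separate runs.

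The markers, 36 gene lists and tests were chosen with earlier results of these data known. Genes were named by fixed rules (markers, called genes, the highest and lowest-p members of each list, the largest non-overlapping changes at 100 CPM, the genes the study names, and the 10 highest), and the values of other listed genes were added after they were seen. The script was tested on simulated data. Alternatives were the pseudocount (1 or 50 CPM), no filter, summed UMIs, limma-voom on the recovered counts, no trend, weights by cell number, median centring, hearts of at least 10 monocytes, cells with 2 of 5 markers, cells without markers of other lineages, and each heart left out. Cells with markers of other lineages were those with UMIs of at least 2 markers of 1 type among T, NK, B, neutrophil, fibroblast and endothelial cells. The alternative of cells with a UMI of Ly6c2 was chosen after seeing the data. Promoter sequences are from RefSeq and gene positions from GENCODE vM21. Some genes are not reported here.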

Additional observations from a re-analysis of the deposited data

How the results depend on the processing

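No paired analysis was possible because the hearts of the groups carry different numbers (1 to 3 and 4 to 6) and come from different animals. Of 776 refitted fold changes of 44 named genes, 711 kept their direction and side of the threshold, 33 became called, 13 were the lost call of Cxcl9 and 19 changed sign. The count of called genes was 0 with a pseudocount of 1 CPM, without the filter, without the trend, with the 4 hearts of at least 10 monocytes and without cells holding markers of other lineages, 8 with a pseudocount of 50 CPM (among them Gbp2, Ifi47 and Ccl2), 30 with hearts weighted by their monocytes, of which WT1 holds 82 of 154, and 0 to 19 with 1 heart left out, the 19 being without WT3. Genes at 2-fold and an unadjusted p of 0.05 numbered 147 and 37 with a pseudocount of 1 and 50 CPM, and 149 to 335 with 1 heart left out. Genes whose effect differed from macrophages numbered 4 by limma-voom, 5 with weights, 3 with the hearts of at least 10 monocytes and 0 to 2 with 1 heart left out. The hemoglobin genes Hba-a1, Hba-a2 and Hbb-bs were among the genes of each of those 3 settings.

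Signs turned as follows. F13a1 became 0.061 by limma-voom, 0.041 weighted, 0.027 centred, 0.066 with 2 of 5 markers, 0.29 without cells of other markers, 0.18 in cells with Ly6c2 and -0.25 to 0.37 with 1 heart left out. Il1b became 0.059, 0.014 and 0.76 by limma-voom, weighted and in the 4 larger hearts (-1.74 to 0.52 with 1 heart left out), and Cd86 0.15, 0.14 and 0.56 (-0.76 to 0.32). Without cells of other markers Ace became -0.21 and Hbb-bs 0.73, and Hbb-bs ran from -2.87 to 0.20 with 1 heart left out. The difference in monocyte share turned to -0.019 percentage points of all cells and -2.73 of myeloid cells without those cells and to -0.87 of myeloid cells among cells with Ly6c2. With 1 heart left out it ran from -1.32 to 2.97 of all cells, -5.47 to 4.56 of monocytes and macrophages and -2.96 to 5.99 of myeloid cells. Shares with a UMI ran from -6.11 to 16.2 for F13a1 and from -3.33 to 0 for Plac8.

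List medians that moved by more than the spread between hearts were as follows. Without cells of other markers they were 0.29 for monocyte markers, -0.23 patrolling, -0.011 transcription factors, -1.13 chemokine ligands, -0.54 chemokine receptors, -0.47 adhesion, -0.46 alternative activation, -0.85 type 2 receptors, 0.58 heat shock and -0.52 survival genes. Weighted, they were -0.038 for transcription factors, -0.44 chemokine receptors, 0.043 S100 proteins and annexins and 0.32 heat shock. By limma-voom they were -0.41 for chemokine receptors, 0.055 S100 proteins and annexins and 0.49 glycolysis. In the 4 larger hearts they were -0.032 for adhesion, 0.30 cytokines, -0.0083 S100 proteins and annexins and 0.30 heat shock. Heat shock was 0.31 with summed UMIs, 0.12 with 50 CPM, 0.36 with 2 of 5 markers and 0.44 with Ly6c2, where chemokine ligands were -0.96. Alternative activation was 0.32 with 2 of 5 markers and 0.33 with Ly6c2. With 1 heart left out, the ranges were -0.25 to 0.37 for monocyte markers, -0.30 to -0.044 transcription factors, -0.54 to 0.67 costimulation, -0.35 to -0.048 adhesion, -0.56 to 0.19 cytokines, 0.00030 to 0.33 alternative activation, 0.052 to 0.25 S100 proteins and annexins, -0.056 to 0.45 glycolysis, 0.095 to 0.33 heat shock and -0.48 to -0.042 survival genes. The cause of these changes was not tested. WT2 and KO5 hold only 5 and 7 monocytes.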

Other observations

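No gene was called among the listed heat shock, calcium-binding and survival genes. The 9 heat shock genes had a median log2 fold change of 0.21, with 6 above 0. Hspe1, the mitochondrial cochaperonin, was at 145, 289 and 123 CPM in WT1, WT2 and WT3 and 101, 73.9 and 40.6 CPM in KO4, KO5 and KO6, and the cytosolic chaperone Hsp90aa1 at 577, 636 and 516 CPM and 488, 409.8 and 401 CPM, so that for both all 3 IL-33+ hearts lay above the others. Dnajb1, an inducible cochaperone, lay the other way round, at 42.2, 0 and 21.5 CPM against 50.2, 46.0 and 49.5 CPM. These orders were taken among 9 genes, where 9.6% of all tested genes had groups that did not overlap.

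The 10 tested S100 proteins and annexins had a median of 0.21, and S100a6 was at 2351, 3657 and 2469.7 CPM in WT1, WT2 and WT3 and 2397, 2338 and 2155 CPM in KO4, KO5 and KO6, with overlap. Of 8 survival and death genes 7 were below 0 (median -0.18). Mcl1, an antiapoptotic BCL2 relative found in all 154 cells, was at 1414, 1068 and 1238 CPM in the IL-33+ hearts and 1493, 1593 and 1735 CPM in the IL-33- hearts, the groups not overlapping, whereas Bcl2l11, which encodes the proapoptotic BIM, was at 376, 467 and 405 CPM and 421, 494 and 378 CPM. The 14 immediate early genes had a median of -0.03, the 6 tested costimulation genes -0.16 and the 3 tested cell cycle genes 0.30. Mki67, a marker of proliferation, had a UMI in 3 of the 154 monocytes.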
